A study of Arabidopsis thaliana with 6 samples.

Results

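The genes described here are the clade A protein phosphatases 2C (PP2Cs) of abscisic acid (ABA) signalling and NCED3, an enzyme of ABA synthesis. They were chosen by locus, and all 9 listed loci (ABI1, ABI2, HAB1, HAB2, PP2CA, HAI1, HAI2, HAI3 and NCED3) had a row among the 24434 genes of the deposited expression table. RNA sequencing was run on stems of Arabidopsis thaliana (thale cress), Columbia ecotype, from 3 plants overexpressing Bnt07G011994 and from 3 wild-type (WT) plants. Both genotypes grew in a greenhouse with 15 h of light a day at 22 °C, and the stems of 1 plant, about 10 cm long, made 1 sample. The labels name neither the promoter of the transgene nor the species of Bnt07G011994. The number of transgenic lines, the hour of harvest and the age in days were likewise not given in the sources used here.

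Abscisic acid is the hormone of drought and salt stress, of seed dormancy and of stomatal closure. NCED3 cleaves carotenoids to the ABA precursor xanthoxin, and is known as the form of the enzyme that drought induces in vegetative tissue. Without ABA, the clade A phosphatases hold SnRK2 kinases dephosphorylated and inactive. With ABA, PYR/PYL receptors bind and block the phosphatases, and the freed kinases phosphorylate ABF transcription factors and ion channels. Transcription of many of the phosphatase genes is itself raised by ABA, a negative feedback, and the 3 HAI genes are named for it (highly ABA-induced).

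Sequence just before the annotated start of each gene was searched for the ABA-responsive element core, ACGTG, on both strands, in windows of 300 bases (RefSeq, TAIR10.1). The core was found in 6 of the 9 windows, against 25.4% of the windows of 16869 genes tested for expression. At least 2 matches were found in 4 of the 9 (HAB2, PP2CA, HAI2 and HAI3), against 10.7% of all windows. HAI3 was too low to be tested for expression, so it counts among the 9 but not in the shares over all windows. HAI2 and PP2CA had 5 matches each, and HAI1, ABI2 and NCED3 had none in this window. A pair of the 5 matches in PP2CA are the same CACGTG read on either strand, so ACGTG and the G-box CACGTG overlap there. The G-box stood in 1 of the 9 windows, against 7.91% of all. Other motifs were as rare among these genes. AAAATATCT, the evening element of clock-controlled genes, stood in 1 window (ABI2, against 3.04% of all), and CCGAC, the core of the cold and dehydration element, in 1 (PP2CA, against 15.2%). The windows of HAI2 and PP2CA are printed for their dense matches and that of HAI1 as the one HAI gene with no match, each from 5′ to 3′ on the strand of the gene, ending 1 base before the annotated start. Capitals mark ACGTG or its reverse complement CACGT. They cover chr1:2282829-2283128 for HAI2, chr3:3585851-3586150 for PP2CA and chr5:23896940-23897239 for HAI1, each on the minus strand.
HAI2: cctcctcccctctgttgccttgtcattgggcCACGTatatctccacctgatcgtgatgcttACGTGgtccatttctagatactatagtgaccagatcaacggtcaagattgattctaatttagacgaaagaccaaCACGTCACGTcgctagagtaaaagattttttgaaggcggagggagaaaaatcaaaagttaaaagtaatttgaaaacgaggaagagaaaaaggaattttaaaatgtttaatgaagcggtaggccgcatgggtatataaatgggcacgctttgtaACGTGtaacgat
PP2CA: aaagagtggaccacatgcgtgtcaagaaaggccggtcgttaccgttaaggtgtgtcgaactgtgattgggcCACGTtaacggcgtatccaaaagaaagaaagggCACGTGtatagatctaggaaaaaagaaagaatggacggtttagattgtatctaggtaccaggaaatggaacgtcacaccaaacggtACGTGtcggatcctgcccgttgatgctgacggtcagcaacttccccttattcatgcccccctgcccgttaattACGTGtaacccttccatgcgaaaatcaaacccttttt
HAI1: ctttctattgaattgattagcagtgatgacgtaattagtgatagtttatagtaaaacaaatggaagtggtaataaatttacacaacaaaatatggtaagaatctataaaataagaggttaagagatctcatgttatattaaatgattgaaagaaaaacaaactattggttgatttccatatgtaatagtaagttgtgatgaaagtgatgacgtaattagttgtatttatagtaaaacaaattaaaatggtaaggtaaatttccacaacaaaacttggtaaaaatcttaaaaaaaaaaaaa

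The libraries held 45092783 to 45642240 reads assigned to genes in the overexpressor and 44597288 to 45265483 in WT. WT replicate 1 had the lowest of the limma sample quality weights, 0.0837, against 0.427 to 6.94 in the other 5 libraries, and the fold changes of the members and the medians of the pathway lists are given below with and without it. Summed FPKM (fragments per kilobase of exon, scaled to the assigned reads of a library) over 9 clock genes was 269 to 383 in the overexpressor, 721 in WT replicate 1 and 183 to 192 in the other WT libraries. Over 5 markers of vessels and fibres it was 595 to 894 in the overexpressor, 124 in WT replicate 1 and 730 to 781 in the other WT libraries. Over 6 guard cell markers it was 21.5 to 29.3 in the overexpressor and 28.1 to 33.3 in WT, and over 3 phloem markers 152 to 155 in the overexpressor and 132 to 180 in WT, where each figure is a sum for 1 library. The 4 epidermis markers summed to 409 to 514 in the overexpressor and to 208 to 534 in WT. Seed markers summed to 2.03 FPKM in overexpressor replicate 1 and to at most 0.109 FPKM in the other libraries, and the 2 measured anther markers to at most 0.0948 FPKM. The markers of vessels and fibres that define a stem with secondary walls were thus present in every library. The part of any of these marker lists in the results below was not tested. Whether fewer cells of a type or less RNA per cell gave a lower value cannot be told apart in bulk stems.

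In these stems 8 of the 9 genes were expressed above a mean of 1 FPKM, the limit for testing, and none passed the test between genotypes. The test was limma on log2(FPKM + 1), overexpressor over WT, with Benjamini-Hochberg adjustment over 16870 genes at a threshold of 0.05. It called 0 of the 8 members and 0.0119% of all genes. At an unadjusted p under 0.05 it picked 1 of the 8, HAI1, against 5.43% of all genes in either direction and 2.02% higher. HAI1 was also the only member whose groups did not overlap, a pattern seen with the overexpressor higher in 4.76% of all genes tested. It passed the limit for testing through the overexpressor, at a mean of 3.95 FPKM, since its WT mean was 0.810 FPKM. These counts thus include a gene admitted through its higher group. Of the 8 members 5 had positive log2 fold changes, against 42.3% of all genes, with a median of 0.10 against -0.04 over all genes tested. Without WT replicate 1 these were 6 of 8, against 44.5%, and a median of 0.32 against -0.02. One alternative made calls: with sample quality weights 4 of the 8 (HAI1, HAI2, ABI2 and NCED3) were called higher, against 4.45% of all genes (10.5% in either direction), with limma adjusted p of 0.0112, 0.0237, 0.0227 and 0.0313. That fit rested mostly on overexpressor replicate 3 (weight 3.53) and WT replicate 2 (weight 6.94).

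The 9 transcripts spanned a wide range of levels, and their order held in nearly every library. PP2CA was highest at a mean of 119 FPKM over the 6 libraries, followed by ABI1 at 45.5, HAB2 at 30.1, HAB1 at 24.5, ABI2 at 16.1, HAI2 at 11.9, HAI1 at 2.38 and NCED3 at 1.02 FPKM, with HAI3 at or near 0. PP2CA lay above ABI1 without overlap of their ranges. ABI1 lay above HAB2, HAB2 above HAB1 and HAB1 above ABI2 in 6 of 6 libraries, although the ranges of these neighbours overlapped between libraries. ABI2 lay above HAI2 in 5 of 6 libraries, with WT replicate 1 the exception, and differences between members were not tested. HAI1 lay above NCED3 in 5 of 6 libraries, again with WT replicate 1 the exception. PP2CA alone carried 46.5% ± 1.48 of the summed FPKM of the 8 phosphatases in the overexpressor and 49.1% ± 4.07 in WT (SD, n = 3 each). The HAI genes carried 6.42% ± 2.81 in the overexpressor and 4.34% ± 3.12 in WT (SD, n = 3 each). By library the HAI share was 3.25, 7.39 and 8.61% in overexpressor replicates 1, 2 and 3, and 7.94, 2.54 and 2.54% in WT replicates 1, 2 and 3.

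**Figure D1:**
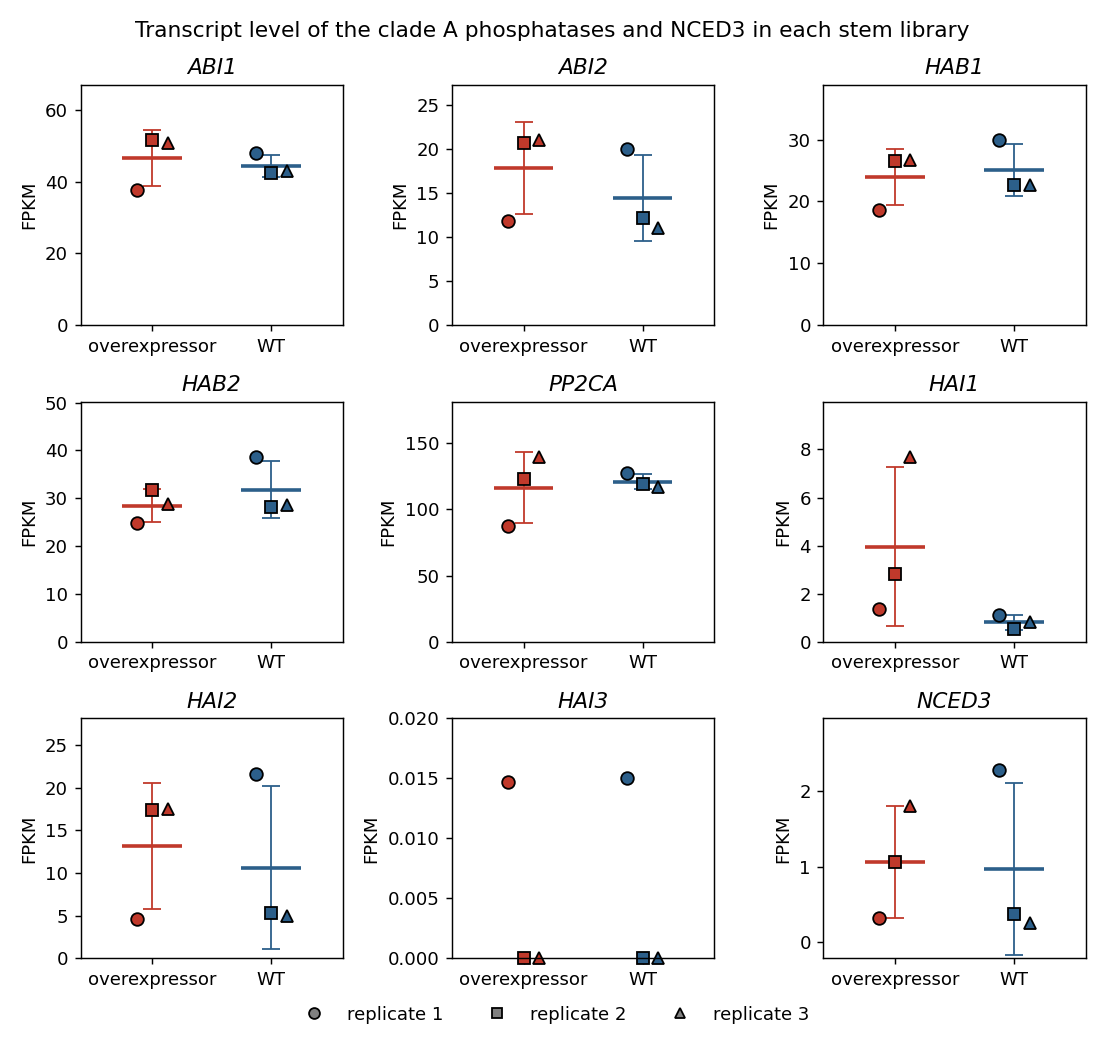
FPKM of each gene (vertical axis, linear, own scale) in the overexpressor and WT, with 1 symbol per library, the mean as a bar and the SD as whiskers (n = 3 each; no mean for HAI3, listed at 0 in 4 libraries). HAI1 lay between 1.36 and 7.68 FPKM in the overexpressor and between 0.509 and 1.12 FPKM in WT; in every panel but that of HAI3, replicate 1 was the lowest overexpressor library and the highest WT library.

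HAI1 (AT5G59220; chromosome 5, 23894404 to 23896939, minus strand, protein-coding) encodes a phosphatase that restrains responses to ABA and low water potential. It stood at 1.36, 2.81 and 7.68 FPKM in overexpressor replicates 1, 2 and 3, and at 1.12, 0.509 and 0.802 FPKM in WT replicates 1, 2 and 3. All 3 overexpressor libraries were above all 3 WT libraries, narrowly so for overexpressor replicate 1. These levels rested on 129, 267 and 722 reads in the overexpressor and on 104, 48 and 75 reads in WT. The means were 3.95 ± 3.31 FPKM in the overexpressor and 0.810 ± 0.305 FPKM in WT (SD, n = 3 each), a ratio of means of 4.88. The log2 fold change was 1.25 (SE 0.47, limma adjusted p = 0.805), and 1.37 (SE 0.51, adjusted p = 0.431) without WT replicate 1. Overexpressor replicate 3 set much of this size, since the log2 fold change was 0.74 (SE 0.28, limma adjusted p = 0.947) without it. For a gene this low the added 1 FPKM shrinks the change, and voom on recovered reads gave 1.99 (SE 0.86, adjusted p = 0.793).

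HAI2 (AT1G07430; chromosome 1, 2280746 to 2282828, minus strand, protein-coding), its close relative, varied more within genotypes than between their means. It stood at 4.67, 17.4 and 17.5 FPKM in overexpressor replicates 1, 2 and 3, and at 21.6, 5.34 and 4.98 FPKM in WT replicates 1, 2 and 3. Overexpressor replicate 1 and WT replicates 2 and 3 were thus at or under 5.34 FPKM, and the other 3 libraries at or above 17.4 FPKM. The highest library was 3.74 times the lowest in the overexpressor and 4.34 times in WT, against a ratio of means of 1.24, overexpressor over WT. The log2 fold change was 0.39 (SE 0.69, limma adjusted p = 0.875), and 1.01 (SE 0.52, adjusted p = 0.565) without WT replicate 1. HAI3 (AT2G29380; chromosome 2, 12608675 to 12610350, plus strand, protein-coding), the last of the HAI genes, was at 1 read in overexpressor replicate 1 and in WT replicate 1 and at 0 reads in the other 4 libraries. A count of 0 allows up to 3 reads, 0.0440 to 0.0447 FPKM in those libraries, by counting error alone. It was below the limit for testing in both genotypes.

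PP2CA, also known as AHG3 (AT3G11410; chromosome 3, 3583782 to 3585850, minus strand, protein-coding), is best known for its role in seeds and germination. Its level was 87.3, 123 and 139.6 FPKM in overexpressor replicates 1, 2 and 3, and 127, 119 and 117 FPKM in WT replicates 1, 2 and 3. Overexpressor replicate 1 lay below the WT range, replicate 3 above it and replicate 2 within it. Means were 117 ± 26.7 FPKM in the overexpressor and 121 ± 5.61 FPKM in WT (SD, n = 3 each). The log2 fold change was -0.08 (SE 0.18, limma adjusted p = 0.902), and -0.04 (SE 0.19, adjusted p = 0.965) without WT replicate 1. AHG1, the remaining clade A phosphatase and not a member, was at most 0.0833 FPKM in the overexpressor and 0.0142 FPKM in WT.

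ABI1 and ABI2, the phosphatases first found through ABA-insensitive mutants, are close homologues. ABI1 (AT4G26080; chromosome 4, 13219915 to 13222376, minus strand, protein-coding) stood at 37.5, 51.5 and 50.7 FPKM in overexpressor replicates 1, 2 and 3, and at 48.0, 42.3 and 42.9 FPKM in WT replicates 1, 2 and 3. Overexpressor replicate 1 was the lowest of the 6, and the other overexpressor libraries were the highest. ABI2 (AT5G57050; chromosome 5, 23087122 to 23089631, plus strand, protein-coding) stood at 11.8, 20.7 and 21.0 FPKM in overexpressor replicates 1, 2 and 3, and at 20.1, 12.2 and 11.0 FPKM in WT replicates 1, 2 and 3. Its libraries lay either at 11.0 to 12.2 FPKM or at 20.1 to 21.0 FPKM, with both genotypes at each level. Log2 fold changes were 0.05 for ABI1 (SE 0.14, limma adjusted p = 0.917) and 0.29 for ABI2 (SE 0.30, limma adjusted p = 0.809). Without WT replicate 1 they were 0.11 (SE 0.15, limma adjusted p = 0.847) and 0.54 (SE 0.25, limma adjusted p = 0.522).

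HAB1 and HAB2 are a second homologous pair of ABA-blocking phosphatases. HAB1 (AT1G72770; chromosome 1, 27389948 to 27393327, plus strand, protein-coding) stood at 18.7, 26.5 and 26.8 FPKM in overexpressor replicates 1, 2 and 3, and at 29.9, 22.7 and 22.7 FPKM in WT replicates 1, 2 and 3. HAB2 (AT1G17550; chromosome 1, 6034270 to 6037398, plus strand, protein-coding) stood at 24.7, 31.7 and 28.9 FPKM in overexpressor replicates 1, 2 and 3, and at 38.6, 28.2 and 28.6 FPKM in WT replicates 1, 2 and 3. In both genes WT replicate 1 was highest and overexpressor replicate 1 lowest of all 6 libraries. Log2 fold changes were -0.07 for HAB1 (SE 0.18, limma adjusted p = 0.916) and -0.15 for HAB2 (SE 0.16, limma adjusted p = 0.812). Without WT replicate 1 they were 0.06 (SE 0.16) and -0.01 (SE 0.11), with limma adjusted p of 0.940 and 0.994.

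NCED3 (AT3G14440; chromosome 3, 4831286 to 4834015, minus strand, protein-coding, 1 exon) was low in every stem. It stood at 0.322, 1.07 and 1.80 FPKM in overexpressor replicates 1, 2 and 3, and at 2.28, 0.372 and 0.261 FPKM in WT replicates 1, 2 and 3. In reads this was 40, 133 and 222 in the overexpressor and 277, 46 and 32 in WT. The highest and the lowest library were both WT, and the WT values differed 8.71-fold among themselves, against 5.60-fold in the overexpressor. NCED3 passed the limit for testing narrowly, through WT replicate 1 and overexpressor replicates 2 and 3. Its log2 fold change was 0.15 (SE 0.46, limma adjusted p = 0.932), and 0.58 (SE 0.31, adjusted p = 0.582) without WT replicate 1.

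**Figure D2:**
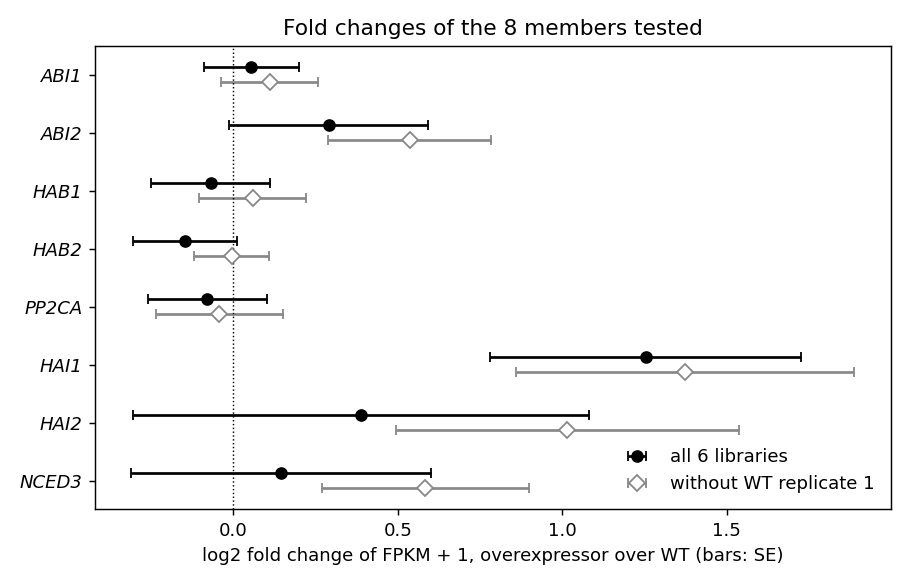
Log2 fold change of FPKM + 1, overexpressor over WT (horizontal axis), for the 8 members tested, with SE bars, over all 6 libraries (filled) and without WT replicate 1 (open). HAI1 has the largest value in both fits (1.25 and 1.37), and HAI2 moves most when WT replicate 1 is left out (0.39 and 1.01).

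The members shared an order of libraries within each genotype. Overexpressor replicate 1 was the lowest overexpressor library in 8 of the 8 members tested, against 45.6% of all genes tested. WT replicate 1 was the highest WT library in 8 of 8, against 50.6% of all genes, and both held together in 32.8% of all genes. The order was not particular to the members. The same 2 counts were 7 and 5 of 8 SnRK2 kinase genes, 5 and 4 of 5 other ABA synthesis genes and 4 and 5 of 6 ABA transcription factors. They were lower in the receptors (2 and 1 of 8) and in genes of ABA breakdown and conjugation (2 and 2 of 6). Summed over the 8 phosphatases, the level was 186, 273 and 292 FPKM in overexpressor replicates 1, 2 and 3, and 287, 230.5 and 228 FPKM in WT replicates 1, 2 and 3. The genotypes overlapped in this sum. Among overexpressor libraries the highest value was 5.64 times the lowest in HAI1, 5.60 times in NCED3 and 3.74 times in HAI2, and 1.28 to 1.78 times in the other phosphatases tested. Clock genes moved in part with this order, since 8 of the 8 tested were highest in WT replicate 1 among WT libraries and 6 of 8 lowest in overexpressor replicate 1 among overexpressor libraries. The part of harvest time or plant state in the members' levels was not tested.

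Among 12613 genes that averaged 5 FPKM or more (12612 for ABI1), those nearest in pattern to 3 of the members were found by the root mean square difference of log2(FPKM + 1), centred on each gene's mean, over the 6 libraries. Nearest to HAI1 were AT1G16850 (difference 0.24), the dehydrin gene LTI30 (0.41) and AT2G37870 (0.42). LTI30 stood at 201, 328 and 338 FPKM in overexpressor replicates 1, 2 and 3, and at 139.5, 81.5 and 91.2 FPKM in WT replicates 1, 2 and 3, without overlap between genotypes. Since LTI30 was picked for its likeness to HAI1 in these same libraries, this is no separate evidence for the pattern of HAI1. Nearest to NCED3 were AT1G78070 (0.16), AT1G73390 (0.17) and the drought-induced gene DI21 (0.19). DI21 stood at 8.36, 18.7 and 17.2 FPKM in overexpressor replicates 1, 2 and 3, and at 21.3, 8.64 and 9.06 FPKM in WT replicates 1, 2 and 3. Nearest to ABI1 were HDT4 (0.03), a plant-specific histone deacetylase gene, AT3G49140 (0.06) and AT3G61420 (0.06).

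The PYR/PYL receptors, which bind the phosphatases, had another order of libraries. None of the 8 receptors tested passed the limma threshold (0 higher and 0 lower), and 4 of the 8 had positive fold changes (median -0.03). Without WT replicate 1 the count of positive receptors was 0 of 8, with a median of -0.49, so both values rest on that library. WT replicate 1 was the lowest WT library in 7 of the 8, against 42.2% of all genes. Overexpressor replicate 1 was the lowest overexpressor library in 2 of the 8, against 45.6% of all genes. PYL4, the most abundant receptor, stood at 121, 56.1 and 93.0 FPKM in overexpressor replicates 1, 2 and 3, and at 18.0, 125 and 128 FPKM in WT replicates 1, 2 and 3. PYL7 was lower in each overexpressor library than in each WT library (log2 fold change -0.24, SE 0.09, limma adjusted p = 0.805), and so was PYL9 (-0.18, SE 0.10, limma adjusted p = 0.805), where 9.69% of all genes lay apart in that direction. Summed receptor FPKM, divided by the summed FPKM of the 8 phosphatases, was 2.05, 0.953 and 1.20 in overexpressor replicates 1, 2 and 3, and 0.687, 1.89 and 1.96 in WT replicates 1, 2 and 3. This ratio of transcripts, which scaling between libraries cannot alter, overlapped between genotypes and was lowest in WT replicate 1.

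**Figure D3:**
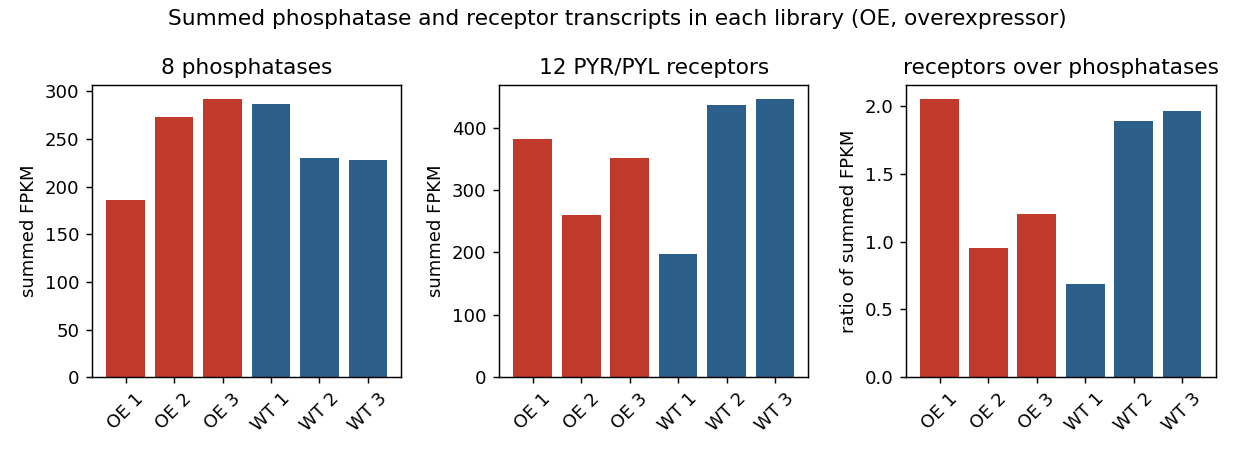
Summed FPKM of the 8 phosphatases (left), of the 12 measured PYR/PYL receptors (middle) and the ratio of the sums (right), 1 bar per library, vertical axes from 0. Overexpressor replicate 1 and WT replicates 2 and 3 have ratios of 1.89 to 2.05, and the other 3 libraries of 0.687 to 1.20.

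None of the SnRK2 kinase and ABA transcription factor genes tested was called between genotypes. Of 8 SnRK2 kinase genes tested 0 passed the limma threshold and 4 were positive (median -0.004, and 0.008 with 4 positive without WT replicate 1). SNRK2.2, the most abundant, stood at 129, 134 and 142 FPKM in overexpressor replicates 1, 2 and 3, and at 151, 121 and 125 FPKM in WT replicates 1, 2 and 3. SNRK2.3 had a log2 fold change of -0.16 (SE 0.14) and OST1 of -0.01 (SE 0.10), with overlap between genotypes in both. SNRK2.10 was lower in each overexpressor library (log2 fold change -0.21, SE 0.08, limma adjusted p = 0.805), where 9.69% of all genes lay apart in that direction. SNRK2.5 was higher in each (0.44, SE 0.21, limma adjusted p = 0.805), against 4.76% of all genes. SNRK2.5 was low, at 2.13, 1.46 and 1.29 FPKM in overexpressor replicates 1, 2 and 3. In WT replicates 1, 2 and 3 it was at 0.519, 1.09 and 1.22 FPKM, a mean of 0.942 FPKM. It thus passed the limit for testing through the overexpressor. Among 6 ABA transcription factors 0 passed and 2 were positive (median -0.02), and without WT replicate 1 the positive ones were 4 of 6 (median 0.06). ABF1 was the most abundant of them, at 24.9, 35.4 and 32.2 FPKM in overexpressor replicates 1, 2 and 3, and at 52.0, 22.3 and 23.1 FPKM in WT replicates 1, 2 and 3. ABF4 had a log2 fold change of -0.32 (SE 0.17) and EEL of -0.07 (SE 0.13), both uncalled with limma adjusted p of 0.805 and 0.873.

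Other genes of ABA synthesis and turnover were also uncalled. In the synthesis list 0 of 5 genes tested were positive (median -0.13), and without WT replicate 1 the count was 2 of 5 (median -0.01). ABA1, the zeaxanthin epoxidase at the head of the pathway, stood at 60.5, 95.5 and 64.5 FPKM in overexpressor replicates 1, 2 and 3, and at 177, 53.9 and 52.4 FPKM in WT replicates 1, 2 and 3, highest in WT replicate 1 as NCED3 was. ABA4 had a log2 fold change of -0.28 (SE 0.21) and ABA3, which makes the cofactor of the last step, of -0.13 (SE 0.15), with limma adjusted p of 0.805 and 0.816. NCED2, NCED5, NCED6 and NCED9, the other enzymes of the NCED3 step, stayed at or under 0.129 FPKM in the overexpressor and 0.103 FPKM in WT. In the breakdown and conjugation list 3 of 6 were positive (median -0.06, and -0.03 with 3 positive without WT replicate 1). UGT71B6, which attaches glucose to ABA, was lower in each overexpressor library, a direction in which 9.69% of all genes lay apart. It stood at 5.91, 5.50 and 4.80 FPKM in overexpressor replicates 1, 2 and 3, against 8.19, 7.25 and 7.88 FPKM in WT replicates 1, 2 and 3 (log2 fold change -0.46, SE 0.11, limma adjusted p = 0.805). CYP707A3, an ABA 8′-hydroxylase, had a log2 fold change of 0.78 (SE 0.55), which was 0.19 (SE 0.29, limma adjusted p = 0.875) without WT replicate 1. UGT71C5, another glucosyltransferase, was at -0.14 (SE 0.11). Both transporters tested were negative, at -0.16 (SE 0.20) for the exporter ABCG25 and -0.14 (SE 0.12) for the importer NPF4.6 (median -0.15). Leaving out WT replicate 1 gave -0.38 (SE 0.08, limma adjusted p = 0.214) for ABCG25 and -0.25 (SE 0.08, limma adjusted p = 0.376) for NPF4.6, a median of -0.32. The 3 ubiquitin ligases tested, known to mark clade A phosphatases for degradation, were negative as well (median -0.06, and -0.14 without WT replicate 1), among them PUB12 at -0.22 (SE 0.10) and PUB13 at -0.06 (SE 0.09), and 0 of 3 passed.

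Genes that ABA and water stress induce had mostly positive fold changes, and none passed over all genes. Of 20 tested 17 were positive, against 42.3% of all genes, and 0 were called by limma. The groups lay apart with the overexpressor higher in 7, against 4.76% of all genes. These were RD29A, KIN1, KIN2, COR15A, COR15B, COR47 and ERD10, with log2 fold changes of 0.48 to 2.11. The others overlapped between genotypes, from -0.40 for RD20 to 0.72 for AFP3. Among them RAB18 was at 0.10, RD26 at 0.09, HB7 at 0.02 and MYB44 at -0.15. The count of positive genes and the median of the 20 include the 7 named above, so they do not describe a rise shared by the whole list. The median log2 fold change of the 20 was 0.36 and depended on single libraries. It was 0.59 without WT replicate 1, 0.72 without overexpressor replicate 1 and 0.21 without overexpressor replicate 3. RD29A stood at 149, 267 and 271 FPKM in overexpressor replicates 1, 2 and 3, and at 59.3, 45.1 and 48.0 FPKM in WT replicates 1, 2 and 3 (log2 fold change 2.11, SE 0.26, limma adjusted p = 0.347). RD22, the most abundant, stood at 652, 968 and 679 FPKM in overexpressor replicates 1, 2 and 3, and at 507, 846 and 796 FPKM in WT replicates 1, 2 and 3. COR15B, a cold-regulated gene of the chloroplast stroma, had a fold change of 1.14 on the log2 scale over all 6 libraries (SE 0.09) and missed the threshold at a limma adjusted p of 0.0702. In the fit that left out WT replicate 1, which called 0.136% of all genes, it was the 1 of the 20 that passed, at 1.21 (SE 0.08, limma adjusted p = 0.00913). Overexpressor replicate 1 was the lowest overexpressor library in 18 of the 20, against 45.6% of all genes, as it was in the phosphatases tested. WT replicate 1 was the highest WT library in 15 of the 20, against 50.6% of all genes.

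**Figure D4:**
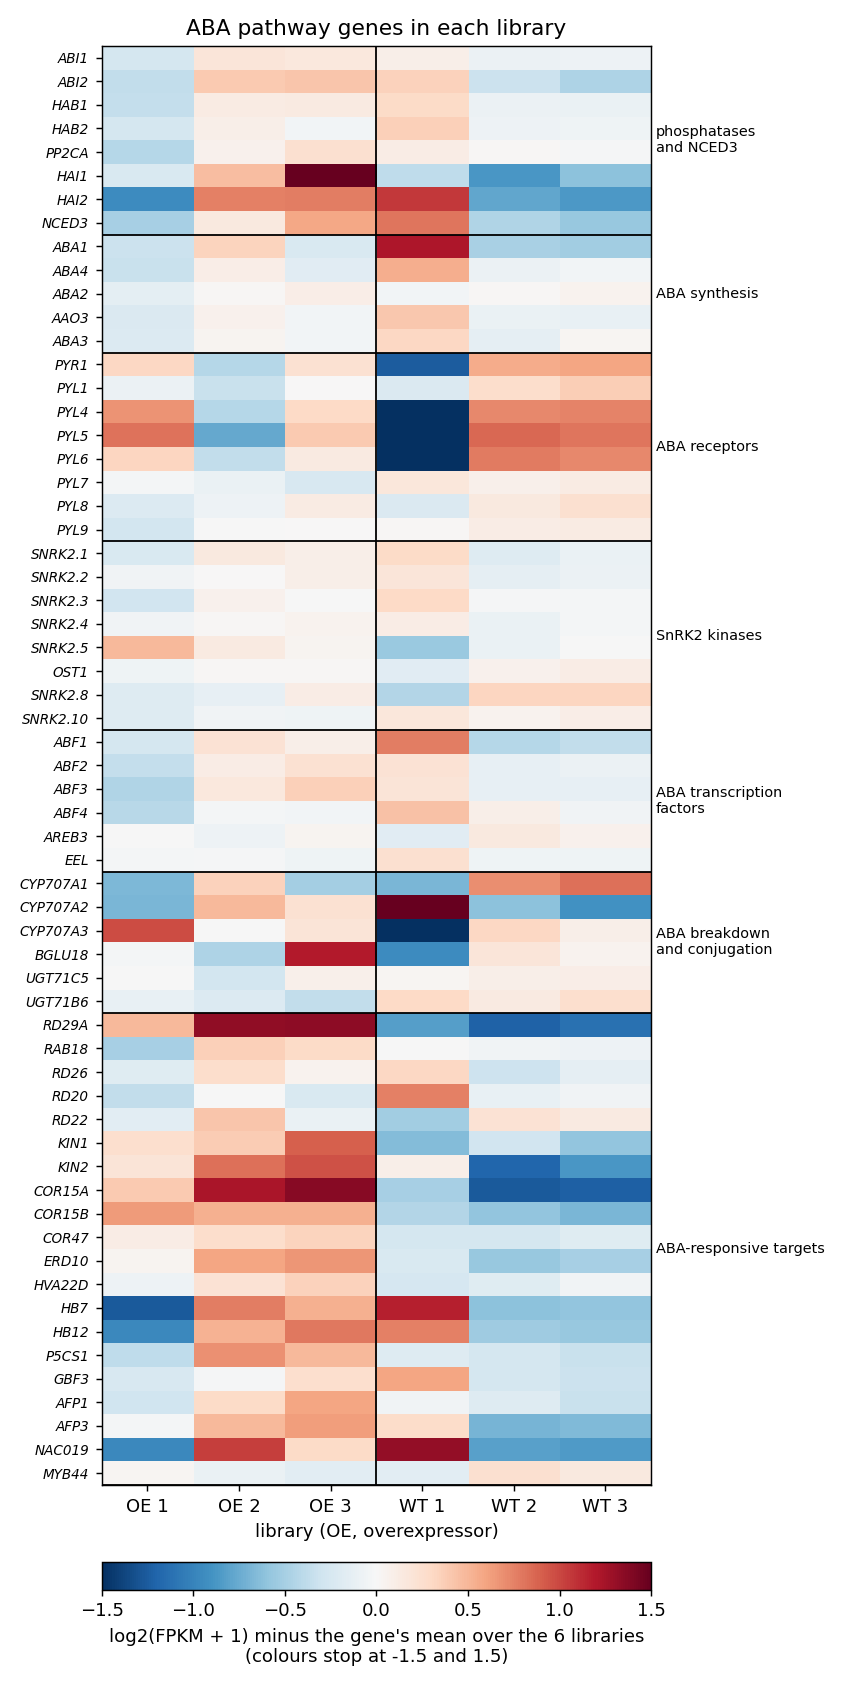
Log2(FPKM + 1) minus each gene's mean over the 6 libraries (colour, red above and blue below the mean), for 61 genes of the ABA pathway that were tested, by list, with libraries in columns and overexpressor (OE) on the left. Colours stop at -1.5 and 1.5, which 5 genes exceed; the phosphatases and NCED3 lie mostly below their mean in OE 1, WT 2 and WT 3, and the receptors PYL4, PYL5 and PYL6 are lowest in WT 1.

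Reads shared between similar or overlapping genes can mix their values. Taking the best match of each member's exons in another annotated gene, the highest identity was 79.3% over 916 bp, between HAB1 and HAB2, followed by 78.4% over 713 bp between ABI1 and ABI2. Exons of ABI1 overlapped those of AT4G26070, on the opposite strand, by 22 of 2169 bp, and the other members overlapped no annotated exon.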

How the data were processed

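The authors deposited FPKM values for 24434 genes in 6 libraries. Per the labels' protocols, an E.Z.N.A. column kit yielded the RNA and NEBNext Ultra reagents the libraries. The submitters' processing notes list HISAT2, an aligner. No source used here gives its version, a genome build, a counting program or whether strand was used. Columns were matched to samples by title, with 0 left over. FPKM times the exon length of each gene in TAIR10.1 (RefSeq) stepped in whole reads, within 0.1 reads, for 100% of values, which gave the read totals and the build used for coordinates. Limma (version 3.58.1, R 4.3.3) was fitted with an intensity trend on log2(FPKM + 1), two-sided, for 16870 genes that averaged 1 FPKM or more, and p-values were adjusted by Benjamini-Hochberg. An exact permutation test of 3 against 3 cannot go below p = 0.1 and was not used. Exon similarity was searched with blastn 2.17.0. The members and gene lists were chosen with earlier results of these data known, and 1 listed ubiquitin ligase was dropped because its name is not in the reference. Beyond the members, each pathway list gave at least its most abundant gene and the 2 of smallest p. The 3 nearest patterns were named for HAI1, ABI1 and NCED3. Samples are separate plants per the labels, so p-values cover plants and library preparation together. Alternatives covered pseudocount, filter, scaling, voom, sample weights, a replicate block and leaving out each library.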

Additional observations from a re-analysis of the deposited data

How the results depend on the processing

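Across 14 alternatives the 8 members tested gave 110 fold changes, of which 95 kept their direction and their side of the threshold, 11 changed sign and 4 became called. The count of members called was 0 in every alternative but sample quality weights, where it was 4, all higher: ABI2 (log2 fold change 0.68), HAI1 (2.14), HAI2 (1.38) and NCED3 (0.89), with limma adjusted p of 0.0227, 0.0112, 0.0237 and 0.0313. That fit called 4.45% of all genes higher and gave WT replicate 1 a weight of 0.0837, against 6.94 and 2.13 for the other WT libraries. The weights of overexpressor replicates 1, 2 and 3 were 0.427, 0.537 and 3.53. The calls thus rested mostly on overexpressor replicate 3 and WT replicate 2. In the weighted fit HAB1 (0.18), HAB2 (0.0202) and PP2CA (0.15) changed sign, uncalled. Leaving out 1 library at a time gave log2 fold changes of -0.0239 to 0.20 for ABI1, 0.13 to 0.55 for ABI2, -0.15 to 0.0936 for HAB1, -0.23 to -0.01 for HAB2, -0.22 to 0.11 for PP2CA, 0.74 to 1.68 for HAI1, 0.05 to 1.01 for HAI2 and -0.11 to 0.58 for NCED3, with 0 members called. Pathway genes called numbered 0, against 23 of 58 with sample quality weights (16 higher and 7 lower, where 10.5% of all genes were called), and 0 to 1 when a library was left out (1, COR15B, without WT replicate 1). The cause was not tested. With the replicate number as a block 0 members were called (HAI1 1.25, limma adjusted p = 0.956). Same-numbered libraries had correlations of deviations of -0.60, -0.59 and 0.03, and differently numbered ones of -0.61 to 0.62. Deviations from a group mean are tied to each other, so these values cannot decide whether the numbers pair libraries. With a filter at 5 FPKM, HAI1 and NCED3 were not tested. Counting error limits HAI3, HAI1 and NCED3 most.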
